A study of Mus musculus with 5 samples.

Results

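Carboxylesterases are serine hydrolases that cleave ester, thioester and amide bonds in drugs, pesticides and lipids. Hepatocytes hold most of them in the lumen of the endoplasmic reticulum, where some members act on stored triglyceride that is later packed into very-low-density lipoprotein. In the mouse the genes stand in tandem arrays on chromosome 8 and are sorted by sequence into subfamilies. The 10 genes described here are Ces1b, Ces1c, Ces1d, Ces1e, Ces1f and Ces1g of the Ces1 group, Ces2a, Ces2c and Ces2e of the Ces2 group, and Ces3a. They were taken from the array's 19752 named genes by the RefSeq accession that the scanner files give for each probe, and all 10 were found, at 13 probes.

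The study measured liver RNA of Fra-1hep mice, labelled Fra-1 hep mice (C57BL/6J), and of control mice, labelled C57BL/6J wt. Fra-1hep mice overexpress Fra-1, the AP-1 transcription factor subunit encoded by Fosl1, in hepatocytes, per the series title; the sources used here do not name the promoter that drives the transgene. Animals of both groups were aged 26 to 28 weeks and were on high-fat feed (45% of calories as fat) starting at 4 weeks. Each of 4 Fra-1hep mice had an array of its own, its RNA in Cy5 beside pooled RNA of 5 controls in Cy3. A further array exchanged the dyes and set the control pool (Cy5) beside pooled Fra-1hep RNA (Cy3). The sources used here do not name the mice in that Fra-1hep pool; they may be the same animals, so the swapped pool is not counted as a further animal.

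Every value below is a log2 ratio of Fra-1hep over control; a value of 1 is a doubling of the signal ratio and 0 is equal signal. The fitted value ± its standard error comes from limma, with a genotype term and a dye term over the 4 mice and the swapped pool. A gene passed when its Benjamini-Hochberg adjusted p, over all 21494 features tested, was under 0.05. The control pool is 1 sample, so the spread among control mice does not enter the errors. The share of spots well above background lay between 47.2% and 61.5% per array and channel. All 13 member probes passed this background test in each channel of each array, and 0 spots were saturated. The Fosl1 probe did not pass it for Fra-1hep RNA on any array, so it does not check the labels.

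All 9 hepatocyte markers with a probe were bright enough to test; 2 rose, 0 fell and 7 did not pass, with a median of 0.10. Their summed normalized signal ran from 489952 to 716698 in the control channel and from 610982 to 872261 in the Fra-1hep channel. Some were above 0 in the 4 mice and below 0 in the swapped pool: Alb (0.40 to 0.68 and -0.31), Ttr (0.79 to 0.94 and -0.58), Serpinc1 (0.38 to 0.57 and -0.78) and Asgr1 (0.20 to 0.44 and -0.21). For these, not passing does not show that they were unchanged. Above 0 on all 5 arrays were 3 markers. The liver is a mixture of cells, and fewer cells of a type cannot be told apart from less RNA per cell. Markers of other cells moved as well: 6 of 7 neutrophil markers rose, while 5 of 7 stellate, 3 of 6 endothelial and 2 of 7 macrophage markers fell. Of all named genes tested, 18.5% fell and 12% rose, and with so few markers the macrophage count is not far from that share. The other 5 macrophage markers did not pass, with fitted values from -0.78 (Marco) to 0.13 (Timd4). Summed neutrophil marker signal was 5181 to 5836 in control and 19429 to 56985 in Fra-1hep. For stellate markers it was 31084 to 41295 in control and 14705 to 18790 in Fra-1hep, for endothelial markers 18583 to 20817 and 12731 to 17500, and for macrophage markers 48123 to 60950 and 22523 to 54283. Their part in the carboxylesterase values was not tested. The enterocyte markers Lct, Alpi and Cdh17 and the adipocyte markers Plin1, Adipoq and Lep did not clear background anywhere. Of the other adipocyte markers, Cfd fell by 3.46 (SE 0.17) and Adrb3 fell by 1.63 (SE 0.10). Of the enterocyte markers tested, Fabp2 fell by 0.81 (SE 0.11) and Vil1 rose by 0.44 (SE 0.10). The 5 cholangiocyte markers did not pass, of 4 lymphocyte markers 1 fell, and of 2 acinar markers 1 rose.

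The carboxylesterases split in Fra-1hep livers. Among the members, 3 fell, 2 rose and 5 did not pass. Ces1e fell most, by 1.35 (SE 0.07), followed by Ces1b and Ces1f. Ces2c and Ces1g rose. Of all features tested, 15.4% fell and 11.2% rose (26.6% in either direction); of the 13524 named genes tested, 18.5% fell and 12% rose (30.5%). Calls were thus common on these arrays, and 5 among 10 genes is read only against that background. When a spread of the control pool was added, the same 5 members passed, while 8.19% of features fell and 5.05% rose. That spread was assumed, as a fixed multiple of each feature's residual variance in the fit, and was not measured in control mice. It is meant wherever the control pool's spread is named below. Against a minimum change of 1.2-fold, 2 members fell (Ces1b and Ces1e) and Ces2c alone rose, beside 3.35% and 1.54% of features. Without the swapped array, 4 members fell and 2 rose, beside 19% and 16.9% of features; the added fall was Ces2e. The median over the members was 0.05, against -0.02 over all named genes. For 4 members the ratio was below 0 on all 5 arrays and for 4 it was above 0 on all 5, while 39.9% of named genes kept 1 sign on all 5 arrays.

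**Figure D1:**
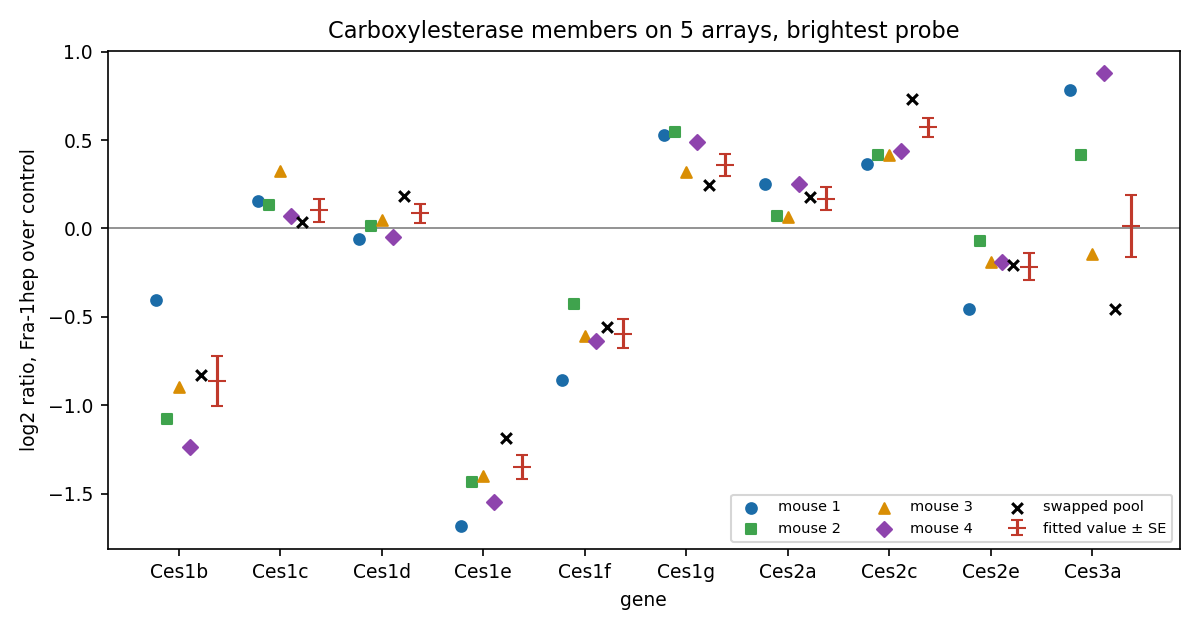
Log2 ratio of Fra-1hep over control for the 10 members at their brightest probe, with 1 point for each of the 4 mice and the swapped pool, and the fitted value with its standard error. Ces1e lies below -1 on all 5 arrays, and the points of Ces3a run from -0.46 to 0.88.

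The start regions of 4 members are shown in pairs, Ces1b with Ces1c and Ces2a with Ces2c. Ces1b and Ces2c passed, while their partners Ces1c and Ces2a did not. RefSeq promoter windows (250 bases before to 50 after the gene start, GRCm38.p6) were given for 7 of the 10 members; Ces1d, Ces1f and Ces3a had no entry. Capitals mark runs of at least 8 bases that are identical in the alignment of a pair, and each sequence reads 5′ to 3′ on its gene's strand. The Ces1b and Ces1c windows were 78.6% identical over the alignment, with 10 such runs and a longest run of 58 bases.
Ces1b (chr8:93079891-93080190, - strand): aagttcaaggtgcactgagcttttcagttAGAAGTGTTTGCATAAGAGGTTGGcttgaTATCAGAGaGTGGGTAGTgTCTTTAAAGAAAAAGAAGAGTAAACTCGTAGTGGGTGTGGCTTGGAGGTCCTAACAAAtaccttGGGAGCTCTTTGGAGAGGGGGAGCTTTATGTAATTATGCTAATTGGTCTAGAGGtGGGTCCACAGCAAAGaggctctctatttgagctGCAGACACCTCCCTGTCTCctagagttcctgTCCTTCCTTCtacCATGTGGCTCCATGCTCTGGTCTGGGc
Ces1c (chr8:93131234-93131533, - strand): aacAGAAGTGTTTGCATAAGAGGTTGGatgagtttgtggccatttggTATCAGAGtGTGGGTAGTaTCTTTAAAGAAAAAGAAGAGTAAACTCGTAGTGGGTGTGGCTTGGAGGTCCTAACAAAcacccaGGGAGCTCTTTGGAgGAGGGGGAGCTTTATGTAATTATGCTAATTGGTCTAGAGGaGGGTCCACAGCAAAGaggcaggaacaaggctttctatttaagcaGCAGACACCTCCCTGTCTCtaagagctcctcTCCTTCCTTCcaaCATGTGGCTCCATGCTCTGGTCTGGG
Ces1b has an overlapping window for another start, and that one was 51.7% identical to the Ces1c window. In that alignment 201 of 211 aligned bases were identical, and 178 gap bases, which count as differences, lowered the share. The 51.7% therefore does not show that this Ces1b window is unlike Ces1c. With the window printed here, Ces1b and Ces1g reached 55.8%.

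The Ces2a and Ces2c windows were 66.9% identical, with 4 runs of at least 8 bases and a longest run of 10.
Ces2a (chr8:104733753-104734052, + strand): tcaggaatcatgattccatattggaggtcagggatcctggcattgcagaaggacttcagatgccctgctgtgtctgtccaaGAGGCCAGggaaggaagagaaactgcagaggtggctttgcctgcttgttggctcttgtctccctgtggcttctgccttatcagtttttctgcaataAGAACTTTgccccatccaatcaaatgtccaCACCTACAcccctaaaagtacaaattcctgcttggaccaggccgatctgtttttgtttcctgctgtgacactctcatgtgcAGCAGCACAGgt
Ces2c (chr8:104846818-104847117, + strand): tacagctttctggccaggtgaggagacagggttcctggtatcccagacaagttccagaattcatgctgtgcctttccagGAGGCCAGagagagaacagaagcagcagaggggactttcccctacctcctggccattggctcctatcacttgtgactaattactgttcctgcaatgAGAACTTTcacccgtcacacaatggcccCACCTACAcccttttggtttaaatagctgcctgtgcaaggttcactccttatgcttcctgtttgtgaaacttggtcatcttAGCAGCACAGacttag
The other Ces2 pairs, Ces2a with Ces2e and Ces2c with Ces2e, stood at 58.7% and 55.5%. The 15 pairs between Ces1 and Ces2 windows ran from 48.1% to 53.2%, with a median of 51.0%. Within Ces1, 9 pairs ran from 47.1% (Ces1c with Ces1e) to 78.6%, with a median of 51.7%. Most Ces1 pairs were thus no more alike than pairs between the groups. Gaps count as differences in these shares, and the pairs were chosen after the values of the genes were known. Each window was also searched on both strands for TGANTCA, the letters of the AP-1 site. It was found in 0 of the 7 members' windows and in 7.81% of all 32851 windows of that length. This says only that these letters are not in these windows.

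Ces1e encodes egasyn, the esterase that holds beta-glucuronidase in the endoplasmic reticulum. Its log2 ratios were -1.68, -1.43, -1.40 and -1.55 across mice 1 to 4, with -1.18 for the swapped pool. All 5 arrays were low, and the normalized log2 levels of the channels did not overlap (11.86 to 12.08 for Fra-1hep, 13.14 to 13.54 for control). Control levels, here and for the members below, are 1 pool read on 5 arrays and hold no spread among control mice. The Fra-1hep levels include the swapped pool. The share of all features without such overlap is not given here. The fitted change was -1.35 ± 0.07, a 2.55-fold lower level (95% interval from -1.51 to -1.18, limma adjusted p = 5.77e-05). It was the member with the largest change at the brightest probes; 2.26% of named genes passed with at least 2-fold.

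Ces1b, a little-described member, gave -0.41, -1.07, -0.89 and -1.24 across mice 1 to 4, with -0.83 for the swapped pool. It was low on all 5 arrays, but mouse 1 lay well above the other mice. Its levels overlapped between channels across arrays (9.48 to 11.45 in Fra-1hep, 10.71 to 11.85 in control). The fitted change was -0.86 ± 0.14 (1.82-fold lower, adjusted p = 0.00591 by limma). Among the members, only Ces3a had a larger standard error. Mouse 1 was also the only array on its slide, and without it the change was -0.95.

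Ces1f, also known as TGH-2, takes part in hepatic lipoprotein assembly. Its ratios were -0.86, -0.42, -0.61 and -0.64 across mice 1 to 4, with -0.56 for the swapped pool. All were low, with levels of 13.79 to 14.07 in Fra-1hep and 14.41 to 14.65 in control that did not overlap. The fitted change was -0.60 ± 0.08, a 1.51-fold lower level (adjusted p = 0.00318 by limma). Against a minimum change of 1.2-fold it did not pass (adjusted p = 0.0502).

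Ces1g, which limits lipid build-up in mouse liver, gave 0.53, 0.54, 0.32 and 0.49 across mice 1 to 4, with 0.25 for the swapped pool. All 5 arrays were high and the levels did not overlap (13.02 to 13.24 in Fra-1hep, 12.57 to 12.83 in control). It rose by 0.36 ± 0.06 (1.28-fold, adjusted p = 0.0077 by limma). This change did not pass against a minimum of 1.2-fold (adjusted p = 0.718). Within each array, Ces1g exceeded Ces1e by 1.43 to 2.21, so the members of the same tandem array went opposite ways on every array.

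The remaining Ces1 members did not pass. Ces1d, the triacylglycerol hydrolase that mobilizes stored fat for lipoprotein secretion, gave -0.06, 0.01, 0.05 and -0.05 across mice 1 to 4, with 0.18 for the swapped pool. Its fitted value was 0.09 ± 0.05, with a 95% interval from -0.04 to 0.21 (adjusted p = 0.284 by limma). Ces1c, which encodes the esterase secreted into mouse plasma, gave 0.16, 0.13, 0.32 and 0.07 in the mice and 0.03 in the pool. Its fitted value was 0.10 ± 0.06 (95% interval from -0.05 to 0.25, adjusted p = 0.28 by limma). Both intervals leave out changes of the size seen in Ces1b, Ces1e or Ces1f. Ces1c stood above Ces1b, whose start region it resembles, by 0.56 to 1.30 on the 5 arrays.

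In the Ces2 group, Ces2c, which hydrolyses triglyceride and diglyceride in liver, was the member that rose. At its brightest probe the ratios were 0.37, 0.41, 0.41 and 0.44 across mice 1 to 4, with 0.73 for the swapped pool. All were high, and the 4 mice lay within 0.08 of each other (SD 0.03). The fitted change was 0.57 ± 0.05 (1.49-fold, adjusted p = 0.000585 by limma). Levels did not overlap between the Fra-1hep channel (14.19 to 14.79) and the control channel (13.82 to 14.06).

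The other Ces2c probes gave a larger rise. The second probe by brightness read 1.24, 1.39, 1.22 and 1.34 across mice 1 to 4, with 1.68 for the swapped pool, and the third read 1.27, 1.36, 1.22 and 1.47 with 1.63 in the pool. Fitted with every kept probe as its own feature, they gave 1.49 ± 0.06 (2.81-fold, adjusted p = 1.76e-05 by limma) and 1.48 ± 0.06 (2.79-fold, adjusted p = 2.51e-05). These probes differed from each other by -0.05 to 0.13 on the 5 arrays. The second exceeded the brightest by 0.81 to 0.98 and the third by 0.81 to 1.03. Means of the 4 mice alone were 0.41, 1.30 and 1.33 from the brightest probe to the third. The rise of Ces2c is therefore given as a range of fitted values from 0.57 to 1.49 by probe. With the mean of its 3 probes it was 1.18 (adjusted p = 5.85e-05 by limma).

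**Figure D2:**
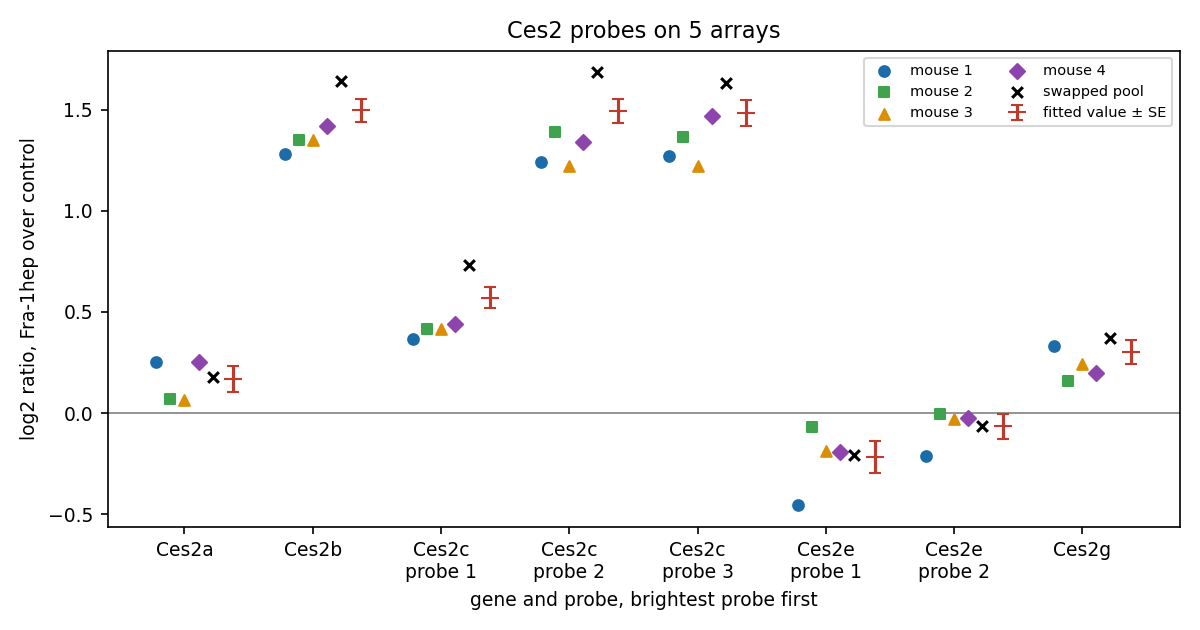
Log2 ratio of Fra-1hep over control for each kept Ces2 probe, with 1 point for each mouse and the swapped pool and the fitted value with its standard error over kept probes. Ces2b and the dimmer Ces2c probes lie between 1.22 and 1.68, and the brightest Ces2c probe lies between 0.37 and 0.73.

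Ces2a, which hydrolyses diglyceride and monoglyceride, gave 0.25, 0.07, 0.07 and 0.25 across mice 1 to 4, with 0.18 for the swapped pool. All were above 0, but the fitted 0.17 ± 0.06 did not pass (adjusted p = 0.0931 by limma; 95% interval from 0.02 to 0.32, not adjusted for the number of features). Ces2c at its brightest probe stood 0.11 to 0.56 above Ces2a on the 5 arrays. Ces2e gave -0.45, -0.07, -0.19 and -0.19 in the mice and -0.20 in the pool at its brightest probe. The fitted -0.22 ± 0.08 did not pass (adjusted p = 0.0845 by limma). It passed without the swapped array (-0.23, adjusted p = 0.0428) and when that array was turned without a dye term (-0.22, adjusted p = 0.0361). Its dimmer probe gave -0.06 ± 0.06 (adjusted p = 0.488 over kept probes by limma), with mouse 1 at -0.21 and the other mice from -0.03 to -0.00.

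Ces3a, the member of the third group, had no settled direction. The ratios were 0.78, 0.42, -0.14 and 0.88 across mice 1 to 4, with -0.46 for the swapped pool. Mice 1, 2 and 4 were high, and mouse 3 and the pool were low. The fitted value was 0.01 ± 0.18, with a 95% interval from -0.40 to 0.43 (adjusted p = 0.966 by limma). It had the widest spread of the members over the 4 mice, with an SD of 0.46, and a dye effect of 0.47, a size that 1.72% of all features reached. The 4 mice alone averaged 0.48 and did not pass (adjusted p = 0.0505 by limma). For the other members the dye effect lay between -0.17 and 0.11. Ces3a was the brightest member, and the share of 1.72% is not limited to features of its brightness. The brightest hepatocyte markers (Alb, Serpinc1, Ahsg and Ttr) had dye effects from 0.44 (Alb) to 0.73 (Ttr). Those of the other hepatocyte markers ran from -0.10 (Apoa1) to 0.26 (Asgr1). Because 1 array carries the exchange, a dye effect and a deviation of that array or its Fra-1hep pool cannot be told apart.

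The groups were compared by the median of their members on each array. The Ces1 median was -0.23, -0.21, -0.28 and -0.34 across mice 1 to 4, with -0.26 for the swapped pool. The Ces2 median was 0.25, 0.07, 0.07 and 0.25 in the mice and 0.18 in the pool. On each array this was the value of Ces2a, which did not pass. The Ces1 median lay on each array midway between a member that fell and a member that did not pass. The Ces2 median was thus higher than the Ces1 median on all 5 arrays, by 0.28 to 0.59. The mean difference was 0.43 ± 0.14 (SD, n = 4 mice), which does not show a rise of all Ces2 members. The medians of all features lay between -0.02 and 0.01 on the same arrays. The Ces1 median hides opposite moves, since fitted values within the group ran from -1.35 (Ces1e) to 0.36 (Ces1g), a wider span than that between the groups. In Ces2 they ran from -0.22 (Ces2e) to 0.57 (Ces2c). Ces3 is 1 gene: it stood above the Ces1 median in the 4 mice, by 0.14 to 1.22, and below it in the swapped pool, by -0.19. No p is given for these medians, because the members were chosen with results known.

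**Figure D3:**
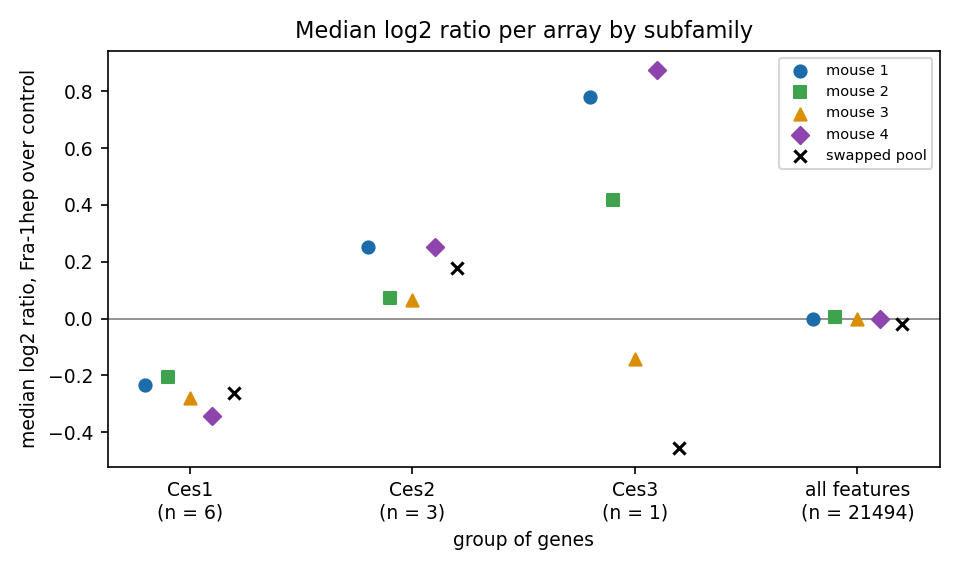
Median log2 ratio of Fra-1hep over control per array for the Ces1, Ces2 and Ces3 members and for all features; the points stand for the 4 mice and the swapped pool. The Ces1 points lie between -0.34 and -0.21 and the Ces2 points between 0.07 and 0.25, while Ces3a spans both signs.

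Other carboxylesterase genes on the array, outside the 10, were read in the same way. Of 7 with a probe, 3 were bright enough to test, and of these 2 rose and 1 did not pass. Ces2b, which lies between Ces2a and Ces2c on the chromosome, gave 1.28, 1.35, 1.35 and 1.42 across mice 1 to 4, with 1.64 for the swapped pool. It rose by 1.50 ± 0.05 (2.82-fold, adjusted p = 1.81e-05 by limma), and all 5 arrays were high. Its ratio differed from that of the second Ces2c probe by -0.04 to 0.13 and from that of the third by -0.05 to 0.12. Carboxylesterases of 1 group resemble each other in sequence, and the probe sequences were not used here. Whether these probes also bind a neighbour's transcript was not tested, and the values of Ces2b and Ces2c in particular are uncertain.

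Ces2g rose by 0.30 ± 0.06 (adjusted p = 0.0104 by limma), with ratios of 0.16 to 0.33 in the mice and 0.37 in the pool; against a minimum of 1.2-fold it did not pass. Ces3b, the neighbour of Ces3a, gave 0.39, 0.09, -0.25 and 0.37 in mice 1 to 4 and 0.57 in the pool, with a fitted 0.36 ± 0.12 that did not pass (adjusted p = 0.0682 by limma). It passed without mouse 3 (0.42, adjusted p = 0.0186). Like Ces3a, it was lowest of the 4 mice in mouse 3, but in the swapped pool Ces3b exceeded Ces3a by 1.02. Ces1a, Ces2f, Ces4a and Ces5a were too dim to test: for none of them did Fra-1hep signal clear background on any array, and control signal did so on 1 array for Ces1a and 2 for Ces4a. Ces1h, Ces2d-ps and Ces2h were not analysed here.

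In their order on the chromosome, genes that fell, rose or did not pass were mixed, with some neighbours alike. Ces1b fell, Ces1c and Ces1d did not pass, Ces1e and Ces1f fell and Ces1g rose. In the second array, Ces2b and Ces2c, which are adjacent, rose between Ces2a and Ces2e, which did not pass. Of the neighbouring Ces1 members, Ces1c stood above Ces1b, Ces1d above Ces1e (by 1.36 to 1.62), Ces1f above Ces1e (by 0.62 to 1.01) and Ces1g above Ces1f (by 0.81 to 1.38) on all 5 arrays. Ces1d minus Ces1c changed sign over the arrays, from -0.27 to 0.15. With 4 mice an exact two-sided sign-flip test cannot go below p = 0.125, so none was run.

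**Figure D4:**
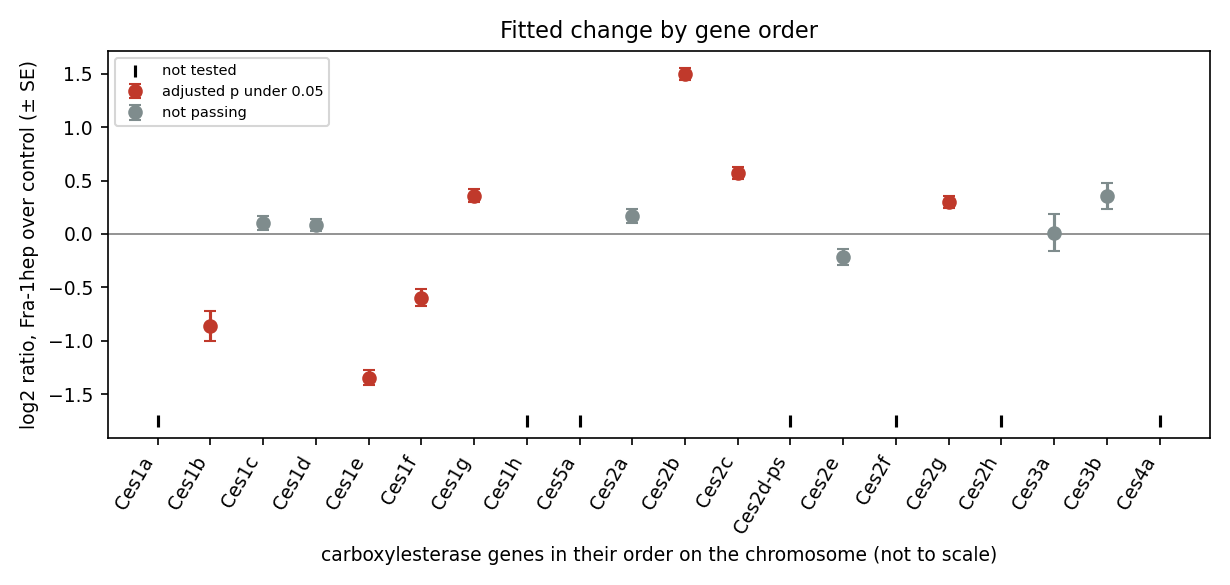
Fitted log2 ratio of Fra-1hep over control, with its standard error, for the carboxylesterase genes in their order on chromosome 8, spacing not to scale; ticks at the base mark genes not tested. The values run from -1.35 (Ces1e) to 1.50 (Ces2b), and Ces1f (-0.60) stands beside Ces1g (0.36).

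Companion genes of the lipid pathway were read against the same shares of named genes, 18.5% lower and 12% higher, and no list was tested as a set. Of 12 genes for triglyceride synthesis and lipoprotein assembly in the endoplasmic reticulum, 1 fell, 1 rose and 10 did not pass, with a median of 0.08, where 30.5% of named genes passed in either direction. Cideb, a lipid droplet and lipoprotein factor, fell by 0.25 (SE 0.07, adjusted p = 0.0365 by limma), and Dgat2, an enzyme of the last step of triglyceride synthesis, rose by 0.23 ± 0.06 (adjusted p = 0.038). Dgat2 read 0.48 to 0.70 in the mice and -0.11 in the pool. Surf4, a cargo receptor, lay at 0.16 ± 0.05 and did not pass. With the control pool's assumed spread added, 0 of these genes passed, and without the swapped array 3 fell and 4 rose.

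Of 14 other lipases and their cofactors for neutral lipid, 5 fell, 0 rose and 9 did not pass, with a median of -0.01, beside 18.5% and 12% of named genes. Mgll, the monoglyceride lipase, fell by 0.67 (SE 0.06, adjusted p = 0.000502 by limma), Abhd6, also a monoglyceride hydrolase, by 0.57 (SE 0.06) and Lpl, lipoprotein lipase, by 0.59 (SE 0.09). Among 15 other esterases and epoxide hydrolases tested, 1 rose, 2 fell and 12 did not pass. Bche, butyrylcholinesterase, rose by 0.29 ± 0.06 (adjusted p = 0.0137 by limma), while Lypla1, a lysophospholipase, fell by 0.18 (SE 0.05) and Ephx1, microsomal epoxide hydrolase, by 0.20 (SE 0.06). Lypla1 read -0.09 to -0.06 in the mice (mean -0.08) and -0.29 in the pool, and Ephx1 read -0.05 to 0.14 in the mice and -0.45 in the pool. With the control pool's assumed spread added, 0 of these 15 passed.

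Carboxylesterase genes are known to respond to nuclear receptors and to NRF2. Of 14 such regulators and their partners, 3 fell, 0 rose and 11 did not pass, with a median of -0.14; with 18.5% of named genes lower, this count is near the background. Keap1, the inhibitor of NRF2, fell by 0.37 (SE 0.05, adjusted p = 0.00338 by limma), Nfe2l2, which encodes NRF2, by 0.27 (SE 0.05) and Nr1i2, the xenobiotic receptor PXR, by 0.31 (SE 0.09). The swapped pool stood apart for Keap1 and Nfe2l2. Keap1 read -0.64 in the pool and -0.14 to -0.07 in the mice (mean -0.10). Nfe2l2 read 0.03 in the pool and -0.65 to -0.52 in the mice. Nr1i2 read -0.14 in the pool, near mouse 4 (-0.18), while the other mice ran from -0.61 to -0.51. With the control pool's assumed spread added 1 of the 14 fell, and without the swapped array 7 fell and 1 rose. Of 10 genes induced through PXR or CAR, 3 fell, 1 rose and 6 did not pass. Cyp2c55 rose by 2.58 ± 0.06 (adjusted p = 2.77e-06 by limma), whereas Cyp3a11 fell by 2.86 (SE 0.18, adjusted p = 0.000133) and Cyp2b10 by 1.05 (SE 0.16, adjusted p = 0.00449). All 3 encode P450 enzymes of drug and steroid metabolism.

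The genes most like a member were sought by the root mean square difference of log2 ratios over the 5 arrays, among 13511 named genes outside the family. For Ces1e they were Slc13a4 (difference 0.14), Igtp (0.18) and Plin2 (0.19). For Ces2c at its brightest probe they were Itpkc (0.04), Cpn1 (0.06) and Pik3r2 (0.06). For Ces3a they were Gm10319 (0.13), Eif2ak3 (0.19) and Akr1c6 (0.22). With 5 arrays against 1 control pool, such likeness describes these arrays alone.

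**Figure D5:**
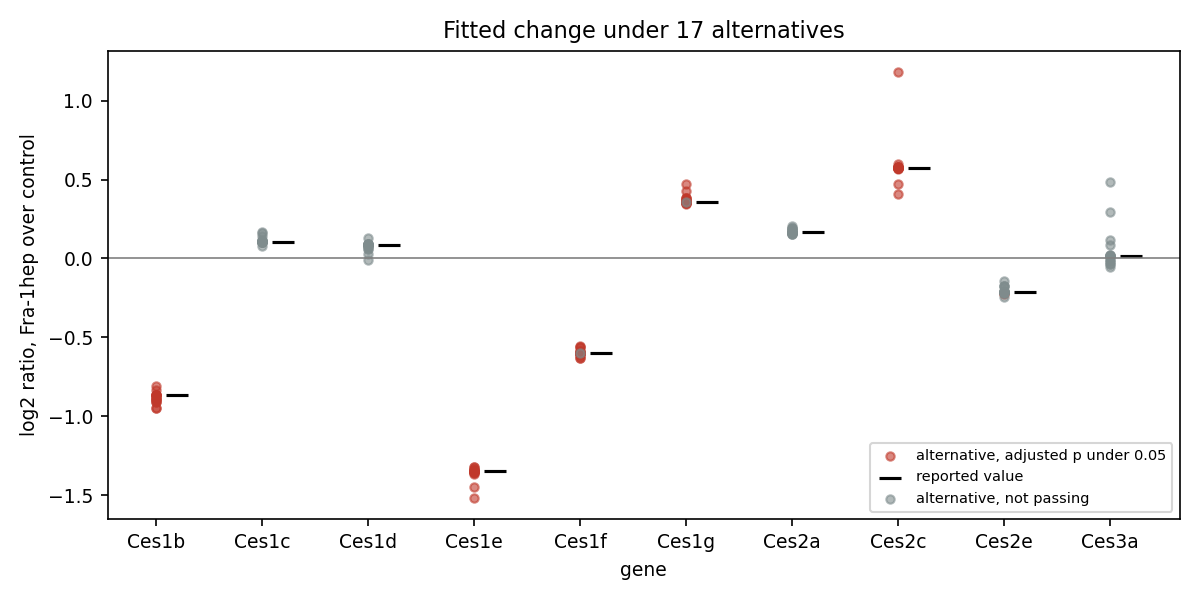
Fitted log2 ratio of Fra-1hep over control for each member under 17 alternative settings (points, coloured by whether adjusted p was under 0.05) beside the reported value (dash). The points of Ces1e lie between -1.51 and -1.32, and those of Ces3a between -0.05 and 0.48.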

How the data were processed

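Spot intensities were extracted by the authors with Agilent Feature Extraction, given as version 10.7 in the submitters' processing notes and as 10.7.3.1 in the files. The scanner files hold raw median intensity, processed intensity, log10 ratios (Cy5 to Cy3) and background and outlier flags of 0 or 1 in other columns, per the file headers. In the table the authors deposited, values are log2 of Fra-1hep over control throughout: regressed on scanner ratios, the mice columns gave a slope of 1.00 and the swapped column -1.00. Column medians were 0.13, 0.08, 0.04, 0.13 and -0.04, so the columns were not centred at 0; the sources used here name no further step.

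Median signals were corrected by normexp (offset 50) followed by within-array loess in limma (version 3.58.1, R 4.3.3). Control spots and 189 outlier spots had weight 0. Spots of 1 probe were averaged. Of 55681 probes, 26056 were named through their accession in the RefSeq gene table of GRCm38.p6. A probe was kept if 1 channel or both cleared background on 3 arrays or more (28115 probes), and the brightest stood for its gene. The fit used lmFit and eBayes with a genotype and a dye term; the swapped array weighs as much as the 4 mice together, and only the mice inform the residual spread (3 degrees of freedom). Levels per channel were taken after loess and Aquantile. The number of arrays limits the precision, with a median standard error of 0.067 over named genes. The fit was tested on simulated data. Promoter windows were aligned globally with Biopython (version 1.88).

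The members and lists were chosen with earlier results of these data known. The text names all members at all their probes, other Ces genes with a probe, up to 3 members with the smallest p of each companion list, and the 3 genes most like the member that changed most in each group. For the cell type markers, counts are given, with summed signals for the lists with most calls and names for the adipocyte and enterocyte lists, where few markers could be tested. Protein comparisons in the design were not run.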

Additional observations from a re-analysis of the deposited data

Results flagged for a closer look

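The dimmer Ces2e probe had 1 mouse far from the others: mouse 1 read -0.21, while the other mice lay between -0.03 and -0.00. Of 16 sets of 4 values examined (13 probes and 3 group medians), this was the 1 that stood out by Dixon's outlier test. By chance alone about 1 in 20 such sets would stand out. The 1 found among 16 is therefore near what chance gives, and no finding is drawn from it. The sets are not all distinct, because the Ces2 median equals Ces2a and the Ces3 median is Ces3a. Mouse 1 was also the lowest of the mice at the brighter Ces2e probe, at -0.45. It was alone on its slide, so the slide and the animal cannot be told apart.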

How the results depend on the processing

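Over 17 alternatives (background correction, normalization, filters, probe choice, dye term, slide, array weights, left-out arrays, the control pool's spread and a minimum change), 3 members (4 without the swapped array or its dye term) fell and 2 rose except against a minimum change of 1.2-fold, where 2 fell and 1 rose. The 1 that still rose there was Ces2c. The fall of Ces1e stayed between -1.51 and -1.32 and that of Ces1b between -0.95 and -0.81, both past the threshold each time. Ces1f and Ces1g lost their calls at 1.2-fold only (adjusted p = 0.0502 and 0.718). Features called numbered 5717, and 2846 with the control pool's assumed spread and 1051 at 1.2-fold. Leaving out 1 mouse gave 4281 to 5488. Without the swapped array the Ces1 median was -0.32 and the Ces3 median 0.48.

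Ces3a, which never passed, turned sign with processed signals (-0.012), the deposited table (-0.012), array weights (-0.021) and a slide term (-0.036), which equals leaving out mouse 1; leaving out 1 mouse gave -0.052 (without mouse 4) to 0.12. Ces1d turned to -0.011 without the swapped array. No paired analysis was possible because the mice and the swapped pool share fewer than 2 replicate numbers, and each array already pairs Fra-1hep with the control pool. Fitting every kept probe apart was chosen after seeing the data.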
